A study of Mus musculus with 14 samples.

Results

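Genes of T cells and natural killer (NK) cells were followed in bone marrow stem and progenitor cells after mature cells had been removed. The 10 genes were Il2rb, Thy1, Eomes, Cd3e, Cd3g, Nkg7, Ccl5, Gzma, Klrk1 and Xcl1. They were taken by gene symbol from the array annotation, which assigned them 12 of the 22690 probe sets, and they are 10 of the 12393 genes that have a probe set with a single symbol. Il2rb and Eomes have 2 probe sets each, and the one with the higher mean was used. All 10 passed the filter on dim signals, which kept a gene when 2 or more of the 14 arrays read it above their own 40th percentile. Eomes passed it only through the 2 arrays of knockout LT-HSCs, so its higher value there was in part required by the filter. Il2rb and Cd3g passed it only through LT-HSC arrays, of both genotypes. Their higher values in LT-HSCs than in the other populations were thus in part required too.

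RNA was measured on 14 Affymetrix arrays, 1 per sample. The knockout groups were Dnmt1fl/fl mice with the Mx-Cre transgene, and the control groups were Dnmt1fl/fl mice without it. Dnmt1 maintains DNA methylation when the genome is replicated. Mx-Cre is driven by an interferon-responsive promoter and deletes floxed alleles after poly(I)poly(C), a double-stranded RNA mimic. All mice, controls included, were on a C57BL/6 background, were 8 to 12 weeks old, and were given poly(I)poly(C) 7 times, each at 25 ug/kg. Bone marrow was collected 4 days after the final dose, and each sample pooled 4 to 6 mice of 1 genotype, so errors and p-values describe pools and not single mice. After lineage depletion 3 populations were sorted. Long-term hematopoietic stem cells (LT-HSCs) were Kit+ Sca-1+ CD34-, with 2 knockout and 2 control arrays. Multipotent progenitors (MPPs) were Kit+ Sca-1+ CD34+, with 2 and 2 arrays, and myeloid progenitors were Kit+ Sca-1-, with 3 and 3. Same-numbered knockout and control arrays of a population came from littermates, which gave 7 pairs.

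As background, T cells recognise antigen through a receptor whose signal is passed on by the CD3 chains, while NK cells use activating and inhibitory receptors that need no rearranged gene. Both kill target cells with granules that hold proteases such as granzyme A, and both depend on cytokines such as IL-2 and IL-15. Stem and progenitor cells are not expected to use most of these genes, although mouse hematopoietic stem cells carry a low amount of Thy1 on their surface. In bulk samples more cells of a type and more RNA per cell cannot be told apart.

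The promoters show how the loci differ in CpG content, the substrate of the deleted enzyme. They are set out here for Eomes, whose tested probe set read higher in knockout than in control LT-HSCs. Those of Gzma and Xcl1, which varied most between littermate pairs, and of Nkg7, which was higher in myeloid progenitors, follow. The sequences are those of RefSeq on GRCm38.p6, run from 250 bases before to 50 bases after the start of the gene, and are written 5′ to 3′ on the strand of the gene. Capitals mark CG.
Eomes promoter (chr9:118477939-118478238, + strand): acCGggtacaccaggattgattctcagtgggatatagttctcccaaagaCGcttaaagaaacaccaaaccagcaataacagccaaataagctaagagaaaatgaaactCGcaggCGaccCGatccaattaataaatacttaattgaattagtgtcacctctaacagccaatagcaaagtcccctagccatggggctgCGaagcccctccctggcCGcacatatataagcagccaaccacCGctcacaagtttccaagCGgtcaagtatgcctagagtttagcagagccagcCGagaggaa
Gzma promoter (chr13:113100932-113101231, - strand): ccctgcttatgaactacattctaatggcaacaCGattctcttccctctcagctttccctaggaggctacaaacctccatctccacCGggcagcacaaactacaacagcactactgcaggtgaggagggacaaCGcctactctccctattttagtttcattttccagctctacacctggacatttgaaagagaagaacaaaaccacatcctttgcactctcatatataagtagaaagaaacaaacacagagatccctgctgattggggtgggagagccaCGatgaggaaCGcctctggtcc
Xcl1 promoter (chr1:164935473-164935772, - strand): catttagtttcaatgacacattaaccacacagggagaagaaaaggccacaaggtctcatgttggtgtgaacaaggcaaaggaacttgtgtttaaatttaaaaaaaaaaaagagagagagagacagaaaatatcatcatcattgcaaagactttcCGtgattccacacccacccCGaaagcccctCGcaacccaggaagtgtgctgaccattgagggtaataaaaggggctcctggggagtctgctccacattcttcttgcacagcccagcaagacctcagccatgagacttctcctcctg
Nkg7 promoter (chr7:43436888-43437187, + strand): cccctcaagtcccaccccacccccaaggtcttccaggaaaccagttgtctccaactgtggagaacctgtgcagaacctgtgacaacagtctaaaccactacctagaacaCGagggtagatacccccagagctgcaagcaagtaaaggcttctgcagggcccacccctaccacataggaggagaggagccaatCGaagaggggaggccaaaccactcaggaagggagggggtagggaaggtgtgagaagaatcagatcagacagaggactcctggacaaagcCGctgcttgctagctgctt

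Of the 10 genes, 7 had such a window. It held 10 CpGs for Eomes, 8 for Cd3e, 5 for Gzma, 4 for Cd3g and for Klrk1, and 3 for Nkg7 and for Xcl1. Over all 32851 promoter windows the median was 7, with quartiles at 3 and 20, so none of the 7 reached the upper quartile. A set of 4 motifs was searched on both strands. The RUNX motif TGTGGT was found in 4 of the 7 windows (Nkg7, Gzma, Klrk1, Xcl1) and in 16.8% of all windows, and the T-box motif GGTGTGA in 2 (Nkg7, Xcl1) and in 4.0% of all. The interferon response element, searched as GAAA, any 2 bases and GAAA, was found in 2 (Eomes, Gzma) and in 3.4% of all, and the ETS motif CCGGAAGT in 0 and in 3.9% of all. No matches of different motifs overlapped in these 7 windows. DNA methylation was not measured here. In the RefSeq gene order Cd3g, Cd3d and Cd3e lie next to each other, Klrk1 lies between Klrd1 and Klrc3, and Gzma lies next to Gzmk.

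The arrays had median intensities between 41.1 and 49.1. Dnmt1 was lower in the knockout group by a log2 difference of -0.63 ± 0.14 averaged over the 3 populations, which missed the threshold (limma adjusted p = 0.188). Its intensity was 1169.7 to 1305.3 in knockout and 1817.8 to 2219.1 in control LT-HSCs. It was 744.8 to 1140.7 and 1518.5 to 1596.1 in MPPs, and 1054.6 to 1192.5 and 1327.9 to 2155.6 in myeloid progenitors. The genotypes did not overlap in any of the 3 populations. B cell markers bear on what was sorted: their summed intensity over 15 genes was 11440.8 to 11582.5 in knockout LT-HSCs and 9966.5 to 18648.2 in control LT-HSCs, against at most 5237.5 in any MPP or myeloid progenitor array. A split of the arrays touches several genes below. Interferon response genes, 14 of them measured, summed to 2801.0 to 4529.7 on both arrays of LT-HSC pair 2, MPP pair 2 and myeloid progenitor pair 3, and to 467.2 to 1010.5 on the other 8 arrays. The labels name no batch that would match this split.

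**Figure D1:**
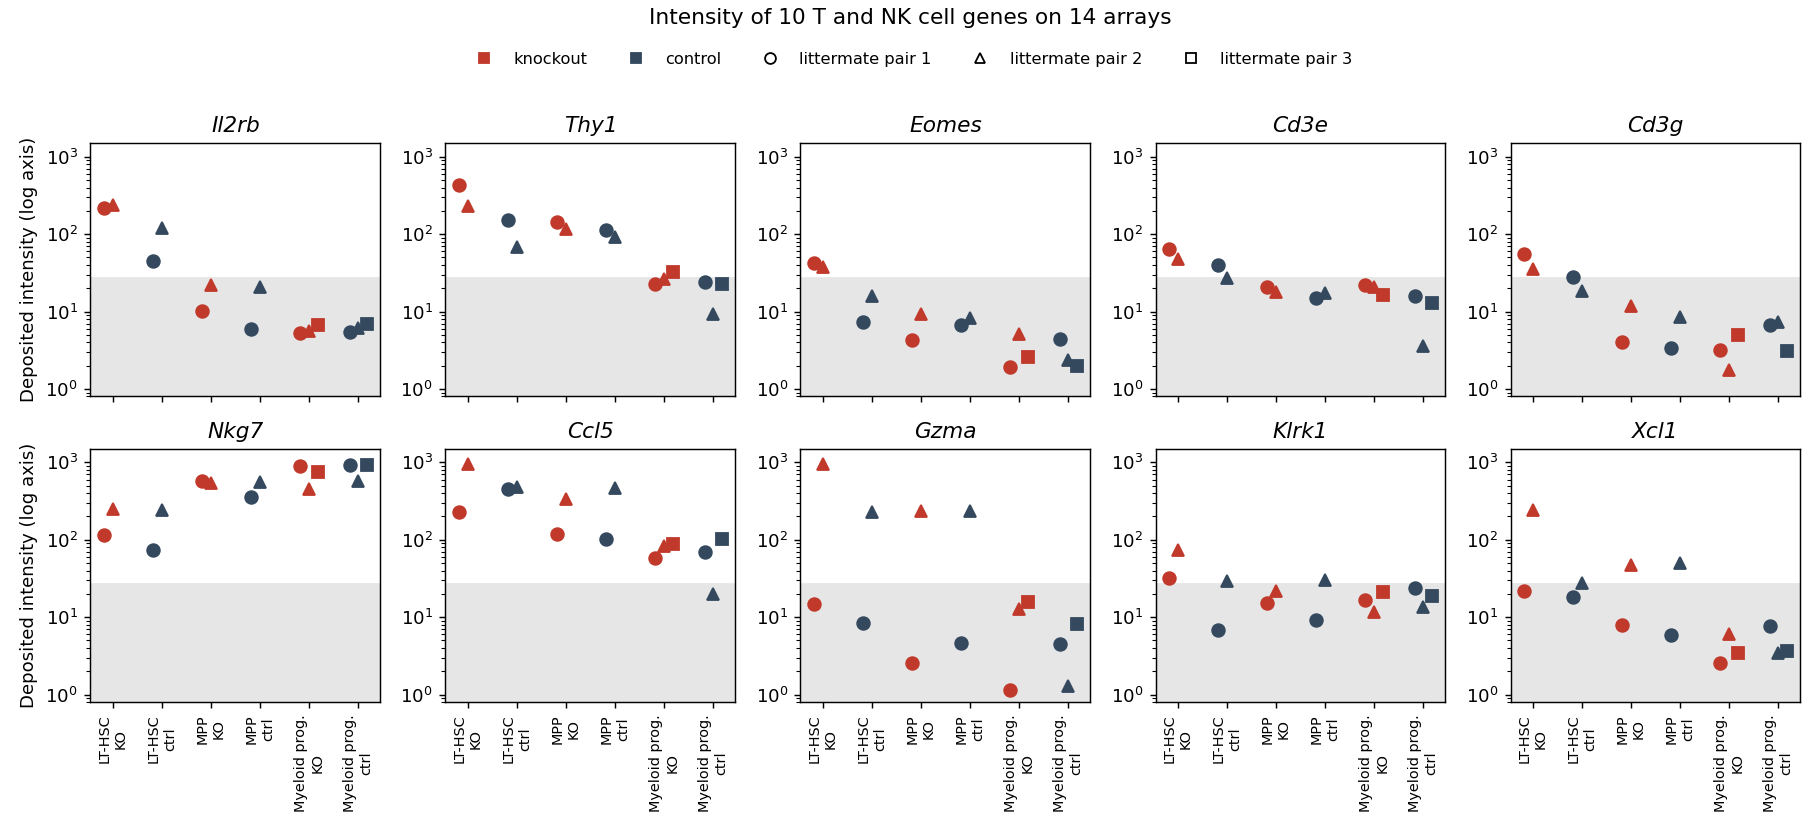
Deposited intensity (log axis) of the 10 genes on the 14 arrays, with knockout arrays in red, control arrays in dark blue, and the marker shape giving the littermate pair. The shaded zone ends at 26.9, the highest 40th percentile of any array. Il2rb and Thy1 are higher on both knockout LT-HSC arrays than on both control LT-HSC arrays, while Gzma separates by pair.

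Knockout and control arrays were set against each other within a population to ask which T and NK cell genes differ when Dnmt1 is deleted. In LT-HSCs all 10 genes had a positive difference, and 0 passed the test over 8598 genes, where 0.0698% of all genes passed. The median of the 10 differences was 1.06 on the log2(intensity + 16) scale, and that of all genes was 0.00. Eomes, which could be tested only because it passed the filter on the knockout LT-HSC arrays, is among the 10. At an unadjusted p under 0.05, 4 of the 10 were higher, Il2rb, Thy1, Eomes and Klrk1, against 3.48% of all genes. In 6 of the 10 both knockout arrays were above both control arrays, against 11.4% of all genes, and in 0 of the 10 were they below. The 10 genes were chosen with earlier results of these data known, so these counts are a description and no independent support. Erythroid markers were higher in the same comparison, with 7 of 7 tested genes positive at a median of 1.00 (0.63 over the 8 with a probe set), Slc4a1, an anion exchanger of red cells, at 1.34 ± 0.32 (limma adjusted p = 0.295), and 0 genes passing. Their summed intensity was 3594.7 to 4743.8 in knockout and 1719.3 to 6321.4 in control LT-HSCs, and their part in the results was not tested. All differences below are knockout minus control on this scale, each followed by its standard error (SE), and the added 16 makes the changes of dim genes look smaller.

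Il2rb encodes the beta chain shared by the IL-2 and IL-15 receptors. Its intensity was 221 and 239.96 on the knockout LT-HSC arrays, against 44.6 and 119.94 on the control LT-HSC arrays. Both knockout arrays lay above both control arrays. The difference was 1.49 ± 0.37 (limma adjusted p = 0.356, n = 2 per genotype), and it was 2.02 in pair 1 and 0.95 in pair 2. It was 0.98 without LT-HSC control array 1 and 1.99 without control array 2. The gene had rank 35 of 8598 genes by p. Its other probe set read 9.87 and 100.35 on the knockout arrays, against 20.2 and 32.2 on the control arrays. Those groups overlapped, and the difference was 0.34 ± 0.53. In pair 1 this probe set was lower in the knockout, with 9.87 against 20.2 units. The probe sets thus disagreed in direction in pair 1 and in size over both pairs.

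Thy1, a surface glycoprotein of T cells and of early hematopoietic cells, had 427 and 235 units of intensity in knockout LT-HSCs, against 151 and 68.0 in control LT-HSCs. The groups did not overlap, and the pairs were at 1.48 and 1.61. The difference was 1.54 ± 0.43 (adjusted p = 0.404, limma), and it was 0.98 without LT-HSC control array 2 and 2.11 without control array 1. Eomes, a T-box transcription factor of NK cells and memory T cells, had 42.2 and 37.6 units in knockout LT-HSCs, against 7.27 and 16.04 in control LT-HSCs. Only the knockout arrays stood above the dim range, with Eomes near or below their median intensities of 42.2 and 48.8. The difference was 1.06 ± 0.28 (adjusted p = 0.404), with pairs at 1.44 and 0.68. The other Eomes probe set stayed between 1.00 and 13.4 units on all 14 arrays and was not tested.

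The CD3 chains showed smaller differences. Cd3e, a signalling chain of the T cell receptor complex, had 64.5 and 47.1 units in knockout LT-HSCs, against 39.8 and 27.5 in control LT-HSCs. Cd3g, another chain of that complex, had 55.1 and 35.4 units in knockout LT-HSCs, against 28.3 and 18.2 in control LT-HSCs. For both genes the knockout arrays lay above the control arrays, by 0.53 ± 0.33 for Cd3e and 0.62 ± 0.32 for Cd3g, and neither difference passed (adjusted p = 0.856 and 0.807). Without LT-HSC knockout array 1 they were at 0.28 and 0.31, and without knockout array 2 at 0.79 and 0.94. Cd3d, the neighbouring CD3 chain gene, had 3.49 and 78.5 units in knockout LT-HSCs, against 11.1 and 3.77 in control LT-HSCs, so its groups overlapped and a single array was high. Klrk1 encodes the activating receptor NKG2D. It had 32.2 and 74.1 units in knockout LT-HSCs, against 6.88 and 29.4 in control LT-HSCs, a difference of 1.07 ± 0.42 (adjusted p = 0.632), with pairs at 1.16 and 0.97. It was 0.58 without LT-HSC control array 1 and 1.55 without control array 2.

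Effector genes did not separate the genotypes in LT-HSCs. Gzma, the granzyme A gene, had 14.8 and 965 units in knockout LT-HSCs, against 8.48 and 226 in control LT-HSCs. Xcl1, the chemokine lymphotactin, had 22.1 and 243 units in knockout LT-HSCs, against 18.2 and 27.4 in control LT-HSCs. In both genes the array of knockout pair 2 was far above the rest, and the differences of 1.20 ± 1.58 and 1.36 ± 0.73 carried large errors (adjusted p = 0.986 and 0.814). Without that array Gzma was at -1.32 and Xcl1 at 0.01. Ccl5, a chemokine of T and NK cells that other cells also make after viral infection, had 228 and 958 units in knockout LT-HSCs, against 448 and 478 in control LT-HSCs, with a difference of 0.10 ± 0.72 and pairs of opposite sign. Nkg7, a granule membrane protein of cytotoxic cells, had 117 and 248 units in knockout LT-HSCs, against 72.7 and 245 in control LT-HSCs (0.34 ± 0.45).

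**Figure D2:**
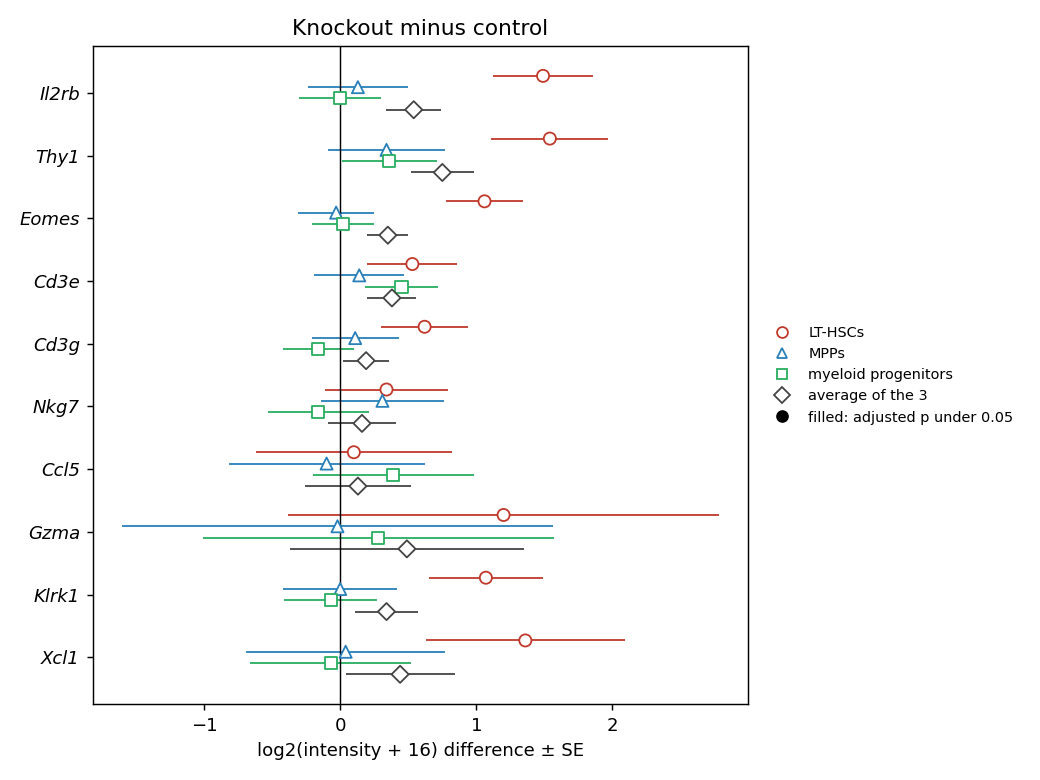
Knockout minus control differences in log2(intensity + 16) (horizontal axis) with their SE for the 10 genes, in LT-HSCs, MPPs, myeloid progenitors and on average over the 3. Open symbols did not pass the test, and no symbol is filled. In LT-HSCs all 10 genes lie right of 0, with Thy1 at 1.54 and Ccl5 at 0.10, while in MPPs and myeloid progenitors they lie between -0.16 and 0.45.

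In MPPs and myeloid progenitors the 10 genes showed small differences. In MPPs 0 of the 10 passed, where 0.0698% of all genes did, 7 of the 10 were positive, and the median was 0.07. The highest was Thy1 at 0.34 ± 0.43, with 144 and 116 units on knockout MPP arrays, against 115 and 92.0 on control MPP arrays. Thy1 and Cd3e were higher on both knockout than on both control MPP arrays, and 10.8% of all genes were. The other 8 genes overlapped between the genotypes in MPPs. Several of them were dim in both populations: over the 10 MPP and myeloid progenitor arrays Il2rb lay between 5.29 and 22.0 units, Eomes between 1.90 and 9.25, Cd3g between 1.76 and 11.9 and Klrk1 between 9.32 and 30.4. In myeloid progenitors 0 of the 10 passed, where 0.0930% of all genes did, 5 were positive and the median was 0.01. Cd3e had 21.7, 21.0 and 16.6 units in knockout myeloid progenitors, against 16.1, 3.57 and 12.7 in control myeloid progenitors. It was the 1 gene of the 10 whose groups did not overlap there, against 1.98% of all genes, but 16.6 and 16.1 units nearly touch, and the difference was 0.45 ± 0.27 (limma adjusted p = 1.00).

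Averaged over the 3 populations, 0 of the 10 genes passed, against 0.233% of all genes. All 10 were positive, with a median of 0.36 against -0.01 over all genes. At an unadjusted p under 0.05, 3 of the 10 were higher, Il2rb, Thy1 and Eomes, against 3.21% of all genes. Thy1 was at 0.75 ± 0.23 (adjusted p = 0.451) and had the higher value on the knockout side of 6 of 7 pairs. With the littermate pairs as blocks its average passed (adjusted p = 0.0461, where the alternatives ranged up to 1.00), the only one of the 10 genes to do so, in a fit that called 70 genes. Il2rb averaged 0.54 ± 0.20 and was higher in 5 of 7 pairs, and Eomes averaged 0.35 ± 0.15, also higher in 5 of 7. The other Il2rb probe set averaged 0.15 ± 0.29. Eomes passed the filter only through the knockout LT-HSC arrays, so its positive average was in part required. Cd3e, at 0.38 ± 0.18, was higher in 7 of 7 pairs. The average includes the LT-HSC difference and is no separate evidence for it.

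Whether the knockout effect differed between populations was tested as an interaction. Between LT-HSCs and MPPs, between LT-HSCs and myeloid progenitors and between MPPs and myeloid progenitors, limma called 0 of the 10 genes and 0% of all 8598 genes. The knockout effect of Il2rb was 1.36 ± 0.53 larger in LT-HSCs than in MPPs (adjusted p = 0.999, unadjusted p = 0.0224) and 1.49 ± 0.48 larger than in myeloid progenitors (adjusted p = 1.00, unadjusted p = 0.00827). With the other Il2rb probe set these values were only 0.19 ± 0.75 and 0.38 ± 0.68. The effect of Eomes was larger in LT-HSCs by 1.09 ± 0.40 than in MPPs and by 1.04 ± 0.36 than in myeloid progenitors. That of Thy1 was larger by 1.21 ± 0.60 and 1.18 ± 0.55. Eomes passed the filter only through the knockout LT-HSC arrays, so its larger effect there was in part required. At an unadjusted p under 0.05, the knockout effect was larger in LT-HSCs than in MPPs for 122 genes and smaller for 137. No effect of the 10 genes was thus shown to be particular to LT-HSCs.

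The genes of this set varied between littermate pairs as well as between genotypes. Gzma was the clearest case. It had 965 and 239 units on the knockout arrays of LT-HSC pair 2 and MPP pair 2 and 226 and 235 on their control arrays. On the pair 1 arrays it had 14.8 and 2.54 units in knockout and 8.48 and 4.59 units in control cells. The 6 myeloid progenitor arrays held 1.13 to 15.8 units. Xcl1 followed the same arrays in MPPs, with 47.5 units in knockout and 50.7 in control cells of pair 2, and 8.02 and 5.86 in those of pair 1. Ccl5 did so too, with 333 units in knockout and 467 in control MPPs of pair 2, and 117 and 103 in those of pair 1. Gzma and Xcl1 passed the filter only through the 4 arrays of LT-HSC pair 2 and MPP pair 2. Their higher values on these arrays were thus in part required.

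These were the pairs in which interferon response genes were also high, with sums of 3030.4 in knockout and 4529.7 in control LT-HSCs of pair 2 and 3152.2 and 4177.2 in MPPs of pair 2. Myeloid progenitor pair 3 had interferon sums of 2801.0 and 3977.8 as well, yet 15.8 units of Gzma in the knockout and 8.21 in the control array. Mature granulocyte markers were high on some of the same arrays, with a sum over 9 genes of 7073.2 in knockout and 1813.6 in control LT-HSCs of pair 2, and 193.0 and 536.2 in those of pair 1. A sign of RNA quality split the LT-HSC pairs too: the ratio of 3′ to 5′ Gapdh probe sets was 2.46 in knockout and 3.07 in control cells of pair 2, and 5.15 and 5.44 in those of pair 1. In MPPs it was 2.53 and 2.44 in pair 2, and 2.66 and 2.86 in pair 1. The same ratio for Actb went the other way in LT-HSCs. It was 1.09 in knockout and 0.97 in control cells of pair 2, and 0.75 and 0.81 in those of pair 1. The Gapdh and Actb ratios thus gave no single reading of RNA quality. Klrk1 was higher in pair 2 as well, with 74.1 units in knockout and 29.4 in control LT-HSCs, against 32.2 and 6.88 in pair 1. In MPPs it had 21.5 and 30.35 units in pair 2, against 15.3 and 9.32 in pair 1. Il2rb had 239.96 and 119.94 units in LT-HSCs of pair 2, against 221 and 44.6 in pair 1. The part of interferon response, granulocyte markers and RNA quality in the values of these genes, Gzma, Xcl1 and Ccl5 was not tested. Thy1 ran the other way, with 427 units in knockout and 151 in control LT-HSCs of pair 1 and 235 and 68.0 in those of pair 2. Its values in knockout and control MPPs were 144 and 115 in pair 1 and 116 and 92.0 in pair 2. Without the 6 arrays of high interferon signal, an alternative chosen after seeing the data, 0 of the 10 genes passed in LT-HSCs. This leaves 1 knockout and 1 control LT-HSC array, so the values are those of pair 1 and the test takes its spread from the myeloid progenitor arrays. Il2rb was at 2.02, Thy1 at 1.48 and Ccl5 at -0.84, and Eomes, Gzma and Xcl1 no longer passed the filter. The other Il2rb probe set was lower in the knockout than in the control LT-HSC array of pair 1.

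**Figure D3:**
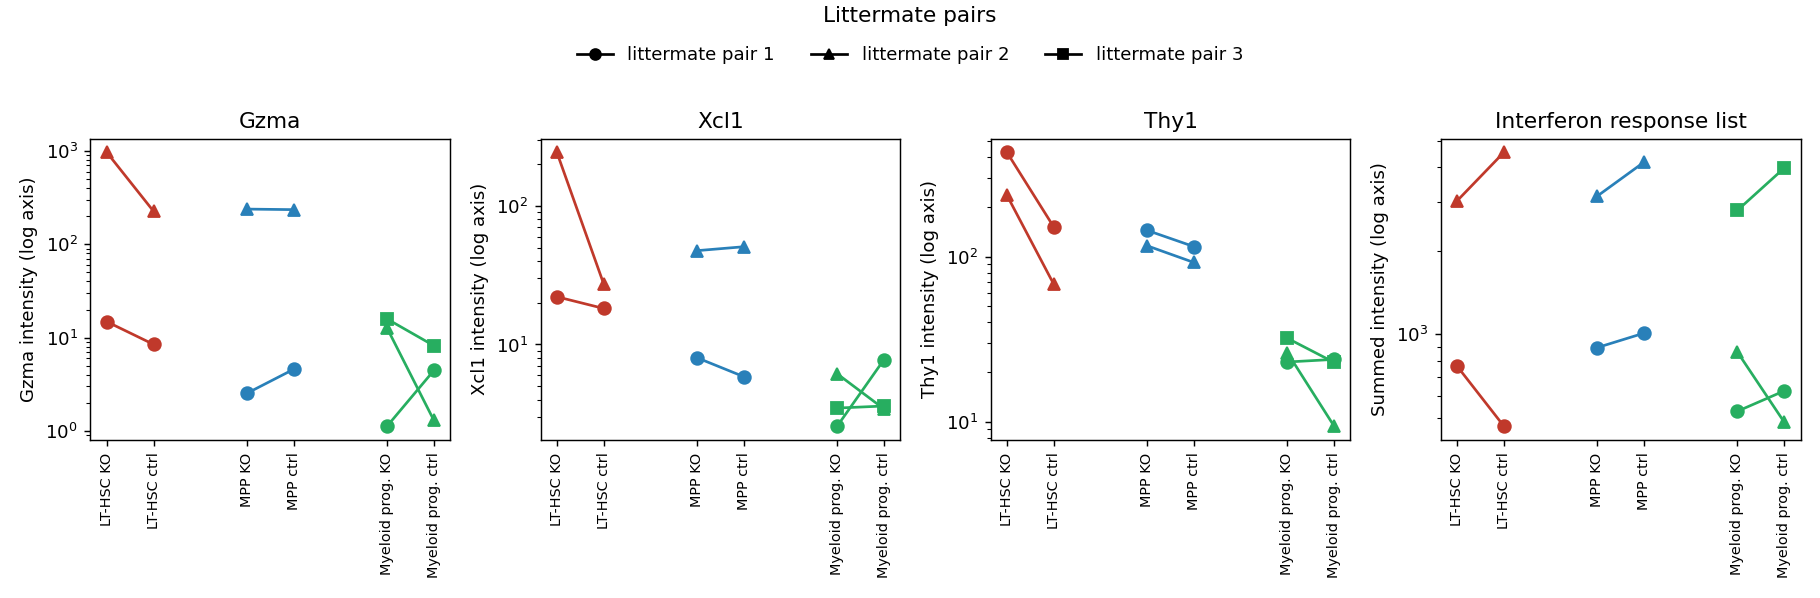
Intensity (log axis) of Gzma, Xcl1 and Thy1 and summed intensity of the interferon response list, with a line joining the knockout array (left) to the control array (right) of each littermate pair. LT-HSCs are red, MPPs blue and myeloid progenitors green. Gzma stays near 235 units on both MPP arrays of pair 2 and below 5 on both of pair 1, whereas the Thy1 lines of LT-HSCs run parallel.

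Correlations between the genes give the same picture as a description, over 14 arrays that share groups and normalization. After the 6 group means were subtracted, Gzma and Xcl1 correlated at r = 0.93, Ccl5 and Xcl1 at 0.86, Ccl5 and Gzma at 0.81 and Gzma and Klrk1 at 0.86. Il2rb and Eomes correlated at 0.82, and Thy1 and Cd3e at 0.76. Thy1 ran against the effector genes, at -0.72 with Gzma and -0.58 with Xcl1. Nkg7 correlated at 0.61 with Il2rb and -0.32 with Cd3g. With the group means left in, so that differences between groups count too, these values were -0.74 and -0.81. The genes whose profiles over the 14 arrays were most like the mean of the 10 were Gimap4 (r = 0.93), Klrd1 (0.91), Klra8 (0.89), Phlda3 (0.87) and Gata3 (0.86). Klrd1 and Klra8 encode NK cell receptors, and Gata3 a transcription factor of T cells and innate lymphoid cells. With group means subtracted the most alike were Ldha, 2610301B20Rik, Psat1, Msmo1 and Ndufs1, at r of 0.97 to 0.98. None of these is on the T and NK cell lists used here, so a high r by this measure is not particular to such genes.

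The control populations were compared to describe where these genes were read without the knockout. Il2rb and Ccl5 had their highest group mean in LT-HSCs and Nkg7 in myeloid progenitors, while Thy1 was about level between LT-HSCs and MPPs. Between control LT-HSCs and control myeloid progenitors 4 of the 10 genes passed, 3 higher and 1 lower, against 6.34% of all genes. Il2rb was higher in LT-HSCs by 2.00 ± 0.34 (limma adjusted p = 0.00329), with 5.37, 6.05 and 6.83 units in control myeloid progenitors. Ccl5 was higher by 2.75 ± 0.66 (adjusted p = 0.0233), with 69.3, 20.1 and 101 units there. Thy1 was higher by 1.77 ± 0.39 (adjusted p = 0.0151), with 23.8, 9.40 and 22.9 units there. Nkg7 was lower in LT-HSCs, at -2.36 ± 0.41 (adjusted p = 0.00409), with 72.7 and 245 units in LT-HSCs and 922, 572 and 929 in myeloid progenitors.

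Of these 4 calls, that of Il2rb held whichever array was left out, with differences of 1.49 to 2.51. Il2rb passed the filter only through LT-HSC arrays, and without the filter its limma adjusted p was 0.00392. Without LT-HSC control array 1 the other 3 missed the threshold, with Thy1 at 1.20 (adjusted p = 0.195), Nkg7 at -1.65 (0.0703) and Ccl5 at 2.74 (0.136). Ccl5 also missed it without LT-HSC control array 2 (0.0683) and without myeloid progenitor control array 1 (0.0541) or 2 (0.0674).

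Between control LT-HSCs and control MPPs 1 of the 10 genes passed, against 2.34% of all genes. This was Il2rb, higher by 1.72 ± 0.37 (limma adjusted p = 0.0302), with 44.6 and 119.94 units in control LT-HSCs and 5.95 and 20.8 in control MPPs. It could be tested only because it was high in LT-HSCs, and without the filter its limma adjusted p was 0.0362. The call was lost without LT-HSC control array 2 (1.20, adjusted p = 0.0983), without MPP control array 1 (1.31, 0.241) and, at nearly the same size, without myeloid progenitor control array 3 or any knockout myeloid progenitor array (0.0511 to 0.0533). The other Il2rb probe set did not pass in either comparison, at 0.63 ± 0.53 against MPPs and 1.08 ± 0.48 against myeloid progenitors (limma adjusted p = 0.626 and 0.241). Nkg7 was at -1.60 ± 0.45 and missed the threshold (adjusted p = 0.0976), but passed without LT-HSC control array 2 (-2.30, 0.0166), a fit in which control LT-HSCs are 1 array of 72.7 units, assumed to vary like the other groups, as is the case wherever an LT-HSC or MPP array is left out. Cd3e and Cd3g were at 0.71 ± 0.33 and 0.85 ± 0.32, and Thy1 at 0.00 ± 0.43. Between control MPPs and control myeloid progenitors 0 of the 10 passed, against 0.0698% of all genes, with Thy1 at 1.76 ± 0.39 (adjusted p = 0.0999), Ccl5 at 1.75 ± 0.66 and Nkg7 at -0.76 ± 0.41. The neighbouring levels of Thy1 in LT-HSCs and MPPs, and of Il2rb in MPPs and myeloid progenitors (0.29 ± 0.34), thus differed by no more than their errors.

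**Figure D4:**
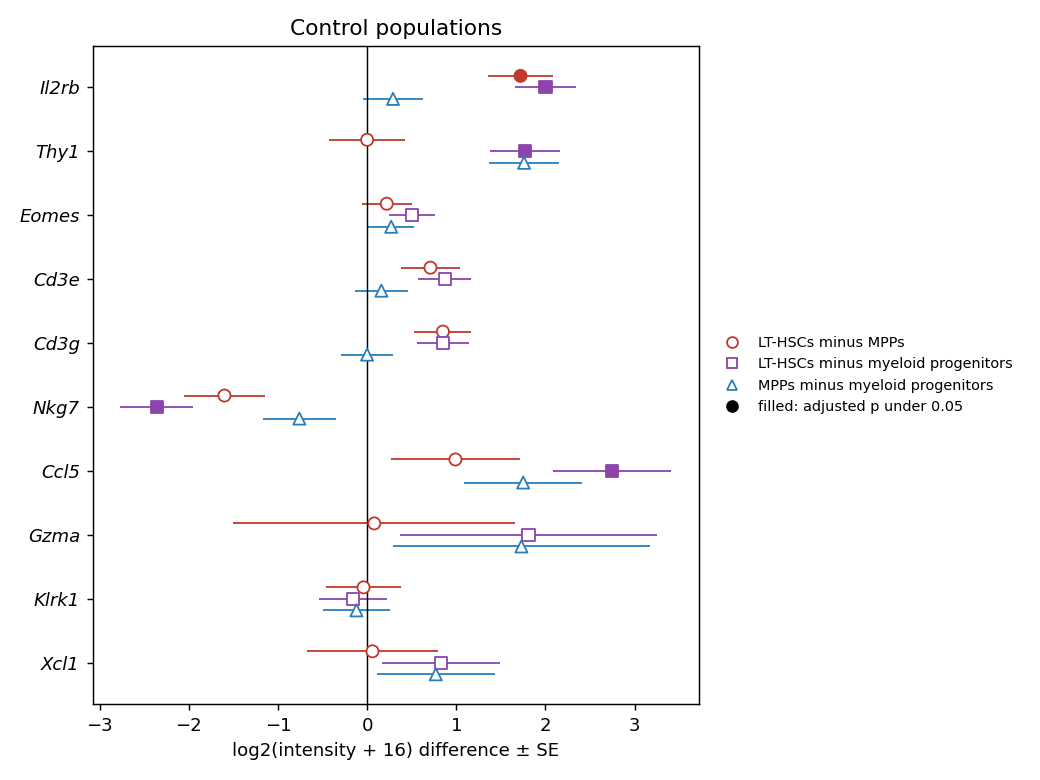
Differences in log2(intensity + 16) (horizontal axis) with their SE between the 3 control populations for the 10 genes, where filled symbols passed the test. Il2rb is filled in both comparisons with LT-HSCs, and Nkg7 lies at -2.36 in LT-HSCs against myeloid progenitors.

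The sorted cells were checked against the defining markers of T and NK cells. In LT-HSCs Ncr1, the NK receptor NKp46, had 12.8 and 44.2 units in knockout cells, against 3.56 and 11.6 in control cells. Cd5, a T cell surface receptor, had 8.04 and 6.95 units in knockout LT-HSCs, against 33.2 and 3.32 in control LT-HSCs. Summed over 7 NK cell markers, of which Il2rb and Eomes belong to the 10 genes, the intensity was 653.2 to 1291.9 in knockout LT-HSCs and 523.7 to 563.1 in control LT-HSCs. Without these 2 it was 389.8 to 1014.4 in knockout and 427.1 to 471.9 in control LT-HSCs, so the groups overlapped. The sum over 7 was 1894.8 to 2511.5 in knockout and 1777.6 to 2420.5 in control myeloid progenitors, where Tyrobp, an adaptor that myeloid cells also use, made up most of it, with 1554 to 2274 units. Summed over 7 T cell markers, of which Thy1, Cd3e and Cd3g belong to the 10 genes, it was 885.9 to 943.2 in knockout and 685.1 to 749.1 in control LT-HSCs. Without these 3 it was 396.5 to 568.7 in knockout and 529.8 to 571.3 in control LT-HSCs, and the knockout arrays were not higher. Of the 4 genes left, only Cd247 was above the 40th percentile on all 14 arrays, so this sum rests largely on it. Cd247 was at -0.31 ± 0.22 in LT-HSCs, while Cd2, also among the 4, was at 0.61 ± 0.34. Markers of type 2 innate lymphoid cells, which share the Sca-1 of the sort, summed over 8 genes to 338.0 to 573.8 in knockout and 576.1 to 1330.1 in control LT-HSCs. The part of such cells in the results was not tested.

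Further genes of the same cells were taken as lists by function, also with earlier results of these data known. Of 12 NK receptor genes tested, 0 passed in LT-HSCs, 10 were positive and the median was 0.71, and over all 21 with a probe set 17 were positive and the median was 0.41. Klra8, a lectin-like NK cell receptor whose probe set may also read its close paralogs, was at 1.03 ± 0.33, with 40.3 and 39.4 units in knockout LT-HSCs, against 16.2 and 6.97 in control LT-HSCs. Like Eomes it passed the filter only through the knockout LT-HSC arrays. Tyrobp was at 0.74 ± 0.34 and Fcgr3, an Fc receptor, at 0.88 ± 0.50. Of 8 cytotoxic effector genes 0 passed and 6 were positive, with a median of 0.36, and over all 12 with a probe set 9 were positive and the median was 0.24. Gzmk, among the 8, passed the filter only through knockout arrays. Prf1, the perforin gene, was at -0.36 ± 0.29 and Srgn at -0.06 ± 0.28. Ctsw, a protease of cytotoxic cells, was at 1.05 ± 0.34, and Tnf at 1.65 ± 0.79. Tnf was at -0.20 with LT-HSC knockout array 1 left out, and it passed with knockout array 2 left out (3.49, adjusted p = 0.00648). Gzmb, granzyme B, was at 1.72 ± 0.80, with 40.5 and 219 units in knockout LT-HSCs, against 3.07 and 54.2 in control LT-HSCs, and passed with the pairs as blocks (adjusted p = 0.0401, and 0.0360 for its average of 0.83 ± 0.43). Leaving out LT-HSC knockout array 2 put its LT-HSC difference at 0.76, and leaving out knockout array 1 put it at 2.68, and its adjusted p reached 1.00 among the alternatives.

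Of 10 genes of the T cell receptor complex and T cell surface 0 passed in LT-HSCs, 8 were positive and the median was 0.22. Cd7 was at 0.89 ± 0.28 and Cd2 at 0.61 ± 0.34, while Cd247, the zeta chain of the receptor complex, was at -0.31 ± 0.22. Of 15 signalling genes 0 passed and 8 were positive, with a median of 0.28. Lat, an adaptor below the T cell receptor, was at 1.55 ± 0.49, with 344 and 560 units in knockout LT-HSCs, against 91.2 and 224 in control LT-HSCs, while Stat4 was at -1.18 ± 0.47 and Il7r, the IL-7 receptor, at -1.62 ± 0.69. Of 5 chemokine and receptor genes 0 passed and 4 were positive, with a median of 0.30. S1pr1, a receptor that guides exit from tissues, was at -0.65 ± 0.35. This gene passed the filter only through 2 control arrays, of LT-HSCs and MPPs, so its lower value in the knockout was in part required.

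Of 12 transcription factor genes 1 fell and 0 rose in LT-HSCs, where 0.0698% of all genes passed, with 7 positive and a median of 0.23 (0.05 over all 14 with a probe set). Lef1, which encodes a partner of beta-catenin active in early lymphocytes, had 22.7 and 21.0 units in knockout LT-HSCs, against 193 and 101 in control LT-HSCs. It passed the filter only through the 2 control LT-HSC arrays, so it had to be lower in the other groups. It fell in knockout LT-HSCs, at -2.06 ± 0.32 (limma adjusted p = 0.0331). It had the single call of the wider lists in this comparison. The call was lost when LT-HSC knockout array 1 was left out (adjusted p = 0.234), likewise for MPP knockout array 1 (0.0507) or any of the 6 myeloid progenitor arrays (0.0603 to 0.0855), and with a pseudocount of 1 (0.345), a filter at the 60th percentile (0.443) or only the arrays of the groups compared (1.00). Tbx21, the T-box factor T-bet, was at 2.38 ± 0.75 (adjusted p = 0.450), with 561 and 306 units in knockout LT-HSCs, against 223 and 13.1 in control LT-HSCs. Both knockout arrays lay above both control arrays, but the difference was 0.85 without LT-HSC control array 2 and 3.93 without control array 1 (adjusted p = 0.0384), where the control is the 1 array of 13.1 units. Nfil3, a factor needed for NK cell development, was at 1.35 ± 0.41. Averaged over the 3 populations 0 genes of these 6 lists passed. Those with the smallest p in each were Cd27 at -0.54, Lat at 0.96, Crtam at 0.86 (it passed the filter only through knockout arrays), Gzmb at 0.83, Ccl3 at -0.69 and Lef1 at -0.71.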

How the data were processed

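The deposited table holds 1 linear intensity for every probe set on every array, judged from its range. The authors' summarisation, background correction and scaling are not given in the sources used here. Per the labels' protocols, RNA was amplified (WT-Ovation Pico) and labelled with biotin. Array medians and interquartile ranges of log2(intensity + 16) differed by up to 0.19 and 0.32, so the values, without 64 control probe sets, were quantile normalized across the 14 arrays. The platform annotation gave 20380 probe sets 1 gene symbol, 691 several and 1555 none. The probe set with the highest mean stood for its gene, and 8598 of 12393 genes passed the filter. The number of arrays limits the precision.

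A single limma fit (limma 3.58.1, R 4.3.3) of 6 group means gave all comparisons, with trended variance, 8 residual degrees of freedom, two-sided tests and Benjamini-Hochberg adjustment over all genes at a threshold of 0.05. It was tested on simulated data. Same-numbered arrays are littermates per the labels, and their deviations from the group means correlated at r of 0.46 (LT-HSCs), 0.59 (MPPs) and 0.20, 0.54 and 0.61 (the 3 myeloid progenitor pairs). A fit with these 7 pairs as blocks left 4 residual degrees of freedom. The 10 genes and all lists were chosen with earlier results of these data known. The genes named outside the 10 are the 3 of each list with the smallest p in LT-HSCs or on average and the genes most like the 10 in profile. Exceptions are Cd3d, Ncr1, Cd5 and Tyrobp, given as defining markers, and Prf1 and Srgn, given as the negative genes of their list. The promoters and motifs were also chosen after values were seen. Python 3.11.15 with pandas 2.3.3 and matplotlib 3.10.9 prepared tables and figures.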

Additional observations from a re-analysis of the deposited data

How the results depend on the processing

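The number of the 10 genes called was recomputed under 32 alternatives, and 297 of 316 counts stayed within 1.5 times the reported count. In the knockout comparisons the counts stayed at 0 except that the replicate block over littermate pairs gave 1 (Thy1) for the average, and it changed no other call of the 10 genes. Over all genes the block called 20 genes in LT-HSCs, 13 in MPPs, 13 in myeloid progenitors and 70 on average, against 6, 6, 8 and 20 without it, and with arrays left out these counts ranged from 0 to 113, 0 to 8, 0 to 13 and 3 to 85. With only the arrays of the groups compared they were 1, 0 and 2 in the 3 populations. The block could not be fitted to the comparisons of control populations, which lie in different pairs. For control LT-HSCs against control MPPs the count of 1 became 0 with a pseudocount of 1, with a filter at the 60th percentile, with only the arrays of the groups compared, and without both arrays of MPP pair 1 or of myeloid progenitor pair 1, 2 or 3, and ranged from 0 to 1 when single arrays were left out. For control LT-HSCs against control myeloid progenitors the count of 4 became 2 without both arrays of LT-HSC pair 1 or myeloid progenitor pair 1 or 2, and ranged from 1 to 4 when single arrays were left out. For control MPPs against control myeloid progenitors the count of 0 became 1 (Thy1) without both arrays of LT-HSC pair 1 or 2.

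Of 4104 recomputed differences 180 changed sign, and 166 of these had a reported value smaller than its SE. The others were Xcl1 without LT-HSC knockout array 2, at -0.01 on average (up to 0.90 without another array) and -0.03 for LT-HSCs against MPPs (up to 2.68), Ccl5 in control LT-HSCs against MPPs at -0.01 without MPP control array 1 or its pair, and Gzma at -0.10 (up to 3.56) and Xcl1 at -0.06 (up to 1.61) in control MPPs against myeloid progenitors without MPP control array 2 or its pair. Tnf in LT-HSCs was at -0.20 without LT-HSC knockout array 1 and -0.12 without its pair (average -0.09 and -0.06), and reached 3.49 (average 1.15) without LT-HSC knockout array 2, where it passed (adjusted p = 0.00648, average 0.0294), as it did in LT-HSCs without the 6 arrays of high interferon signal (0.0317). Tyrobp in LT-HSCs was at 0.00 without LT-HSC pair 2 or the 6 arrays of high interferon signal. The cause was not tested. Most of the 10 genes lie near the dim range outside LT-HSCs, where differences could not be resolved.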
